A study of Mus musculus with 20 samples.

Results

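The genes described here are 8 ligands of the CXC chemokine family (Cxcl1, Cxcl2, Cxcl3, Cxcl9, Cxcl10, Cxcl11, Cxcl14 and Cxcl16) and the chemokine receptor Cxcr4, 9 of the 55487 genes in the count table. They were chosen by gene symbol, matched to Ensembl mouse identifiers. RNA was sequenced from 20 cultures of BV-2, an immortalised mouse microglial line derived from C57BL/6 brain cultures and labelled wild type. There were 4 groups of 5 cultures: young (low passage) and aged (long-term cultivated) BV-2 microglia, each untreated or exposed to 100 ng/ml bacterial lipopolysaccharide (LPS) for 6 hours. Each of 5 batches named in the labels held 1 culture of every group. Counts per library ranged from 11371508 to 16829292. The model is a single line, and per the study's methods the aged cells were grown in long-term culture and then frozen in aliquots, so that age here is time in culture. P-values measure the spread between these cultures. Of the 13 microglia and macrophage markers examined, 12 held more than 3 counts in all 20 libraries, among them Csf1r, Trem2 and Cd68, the most abundant, at 894 to 1109 CPM (read counts scaled to the size of the library) in the group means. The homeostatic microglial marker P2ry12 was the exception. It did not exceed 31 counts in any library. The defining markers of neurons (Snap25, Map2) and fibroblasts (Dcn, Pdgfra) had 0 counts in every library, as did Aqp4 of astrocytes, Mog of oligodendrocytes and Cldn5 of endothelial cells, although Kdr, another endothelial marker, stood at 75.0 to 103 CPM in the group means. All 5 fibroblast, 4 of 5 neuronal and 3 of 5 astrocyte, oligodendrocyte and endothelial markers never exceeded 3 counts.

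CXC chemokines are small proteins that guide leukocytes along concentration gradients by binding receptors coupled to G proteins. Cxcl1, Cxcl2 and Cxcl3 carry the ELR motif and draw neutrophils through Cxcr2, whereas Cxcl9, Cxcl10 and Cxcl11 lack it, are induced by interferon and draw activated T cells through Cxcr3. Cxcl14 is a constitutively made chemokine of many tissues, Cxcl16 is made as a membrane protein that ADAM proteases shed and that binds Cxcr6, and Cxcr4 is the receptor of Cxcl12 and also binds the cytokine Mif. In microglia, LPS acts on Tlr4, which drives NF-kappaB directly and interferon signalling through Ticam1 (TRIF).

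In the GENCODE annotation of GRCm38, 6 of the 9 genes lie on chromosome 5. Cxcl3 (chr5:90786103-90789600), Cxcl1 (chr5:90891241-90893115) and Cxcl2 (chr5:90903871-90905938) are on the plus strand, with 10.8 kb between Cxcl1 and Cxcl2. Cxcl9 (chr5:92321347-92328079), Cxcl10 (chr5:92346638-92348889) and Cxcl11 (chr5:92359544-92365485) are on the minus strand and lie in a row, 18.6 and 10.7 kb apart. Cxcl11 is annotated as a polymorphic pseudogene, and whether its RNA in this line encodes a working ligand was not tested. Cxcl14 (chr13:56288643-56296551), Cxcl16 (chr11:70453983-70459984) and Cxcr4 (chr1:128588199-128592293) are also on the minus strand. Exons of Cxcl10 overlap Art3, those of Cxcl16 overlap Zmynd15 and those of Cxcl11 overlap Gm2673, all on the opposite strand. These 3 partners had at most 7, 8 and 1 counts in any library, and reads that could belong to either gene of a pair were not measured.

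RefSeq promoter sequences (GRCm38.p6) were on hand for 7 of the 9 genes, Cxcl11 and Cxcl16 being the others. The 250 bases before the RefSeq start are shown, 5′ to 3′ on the gene's strand, for the 3 ELR genes and for Cxcl9 and Cxcl10, because Cxcl2 and Cxcl10 were abundant after LPS and their relatives in the same chromosome 5 clusters stayed near the floor of detection. RefSeq starts can differ from the GENCODE starts above. Capitals mark matches to an NF-kappaB motif (GGG, any 3 bases, then TTCC), an interferon-stimulated response element or ISRE (TTTC, any 2 bases, then TTTC), an AP-1 motif (TGANTCA) and a TATA box (TATAAA), each sought on both strands, so that matches to the same motif on opposite strands can overlap.
Cxcl1 (chr5:90890995-90891244, plus strand): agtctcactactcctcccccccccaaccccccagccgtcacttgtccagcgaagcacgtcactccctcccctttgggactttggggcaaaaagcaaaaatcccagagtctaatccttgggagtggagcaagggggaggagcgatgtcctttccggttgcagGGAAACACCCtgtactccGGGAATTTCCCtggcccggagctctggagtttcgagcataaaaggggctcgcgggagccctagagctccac
Cxcl2 (chr5:90903649-90903898, plus strand): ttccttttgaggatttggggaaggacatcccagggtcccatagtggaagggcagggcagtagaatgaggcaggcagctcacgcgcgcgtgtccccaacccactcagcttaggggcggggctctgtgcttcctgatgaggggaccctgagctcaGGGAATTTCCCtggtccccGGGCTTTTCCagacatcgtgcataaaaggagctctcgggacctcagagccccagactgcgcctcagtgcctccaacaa
Cxcl3 (chr5:90785851-90786100, plus strand): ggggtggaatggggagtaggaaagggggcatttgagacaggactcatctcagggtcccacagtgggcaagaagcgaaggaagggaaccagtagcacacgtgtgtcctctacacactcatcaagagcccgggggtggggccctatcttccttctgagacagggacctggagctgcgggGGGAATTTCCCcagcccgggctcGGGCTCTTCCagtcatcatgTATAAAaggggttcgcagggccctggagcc
Cxcl9 (chr5:92328080-92328329, minus strand): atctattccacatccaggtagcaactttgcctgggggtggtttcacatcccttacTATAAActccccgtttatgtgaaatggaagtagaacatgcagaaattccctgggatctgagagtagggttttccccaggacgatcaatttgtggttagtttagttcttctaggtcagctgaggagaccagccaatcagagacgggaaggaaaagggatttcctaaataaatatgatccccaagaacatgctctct
Cxcl10 (chr5:92348890-92349139, minus strand): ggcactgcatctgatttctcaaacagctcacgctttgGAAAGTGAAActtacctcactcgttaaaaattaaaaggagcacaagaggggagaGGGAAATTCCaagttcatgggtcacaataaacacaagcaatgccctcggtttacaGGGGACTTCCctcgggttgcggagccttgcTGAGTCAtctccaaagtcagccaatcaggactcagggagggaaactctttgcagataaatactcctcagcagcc

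The same 10 letters, GGGAATTTCC, began 71 bases upstream of the start in Cxcl1, 97 in Cxcl2 and 73 in Cxcl3, and in each of them a match on the other strand overlapped it. Each held 1 further match, GGAAACACCC (opposite strand) at 89 bases in Cxcl1, GGGCTTTTCC at 78 in Cxcl2 and GGGCTCTTCC at 50 in Cxcl3. Cxcl10 had GGGAAATTCC at 159 and GGGGACTTCC at 104 bases, an ISRE on the opposite strand (GAAAGTGAAA) at 213 and an AP-1 motif (TGAGTCA) at 74. NF-kappaB letters were thus found in 4 of the 7 promoters, not in those of Cxcl9, Cxcl14 and Cxcr4, and in 4.65% of all 32851 RefSeq windows of the same length. The ISRE letters occurred in Cxcl10 and Cxcl14, 2 of 7, against 2.98%, the AP-1 letters in 1 of 7 against 6.75%, and TATAAA in 3 of 7 (Cxcl3, Cxcl9 and Cxcr4) against 12.4%. These are matches of letters and say nothing of binding.

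Libraries that stood apart are named first. Culture 3 of the aged LPS group had 618 CPM of Cxcl10, while the others of that group lay between 161 and 203 CPM. It was also the highest of its group for 14 of the 17 interferon pathway genes tested, with Irf7 at 158 CPM against 67.1 to 87.5 CPM and Stat2 at 93.7 CPM against 32.2 to 54.5 CPM in the other cultures. Culture 1 of the young untreated group held 39 of the 61 Cxcl2 reads of its group, with Irf7 at 4.76 CPM against 1.15 to 2.66 CPM and Usp18 at 4.14 CPM against 0.732 to 1.33 CPM. It was the highest of its group for 7 and the lowest for 3 of the 17 interferon pathway genes. The part of interferon signalling in either culture's chemokine levels was not tested. Results that these cultures moved most are given with and without them.

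Only 5 of the 9 genes (Cxcl2, Cxcl10, Cxcl14, Cxcl16 and Cxcr4) had enough reads to pass edgeR's filter on low counts, which kept 12799 genes. The filter can be passed through the LPS-treated groups alone, as Cxcl2 shows, with no read in any aged untreated culture. Cxcl1, Cxcl3, Cxcl9 and Cxcl11 had no reads in any of the 10 untreated cultures. A count of 3, taken as the floor of detection, equals 0.165 to 0.296 CPM in these libraries, and floors cover counting error only. In bulk RNA, fewer cells making a transcript and less of it per cell cannot be told apart.

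**Figure D1:**
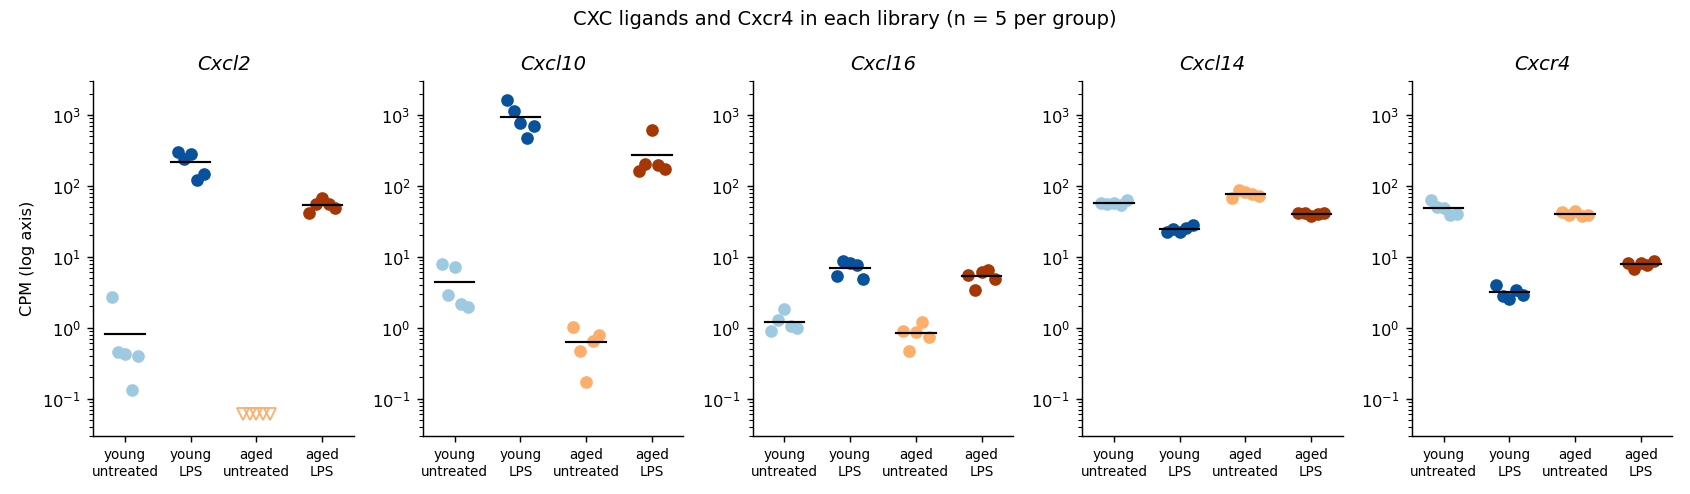
Level of each of the 5 tested genes in CPM (log axis) in every library, 5 points per group, with the group mean as a line and open triangles at the bottom for libraries with 0 counts. Cxcl2, Cxcl10 and Cxcl16 stood higher and Cxcl14 and Cxcr4 lower in every LPS-treated culture than in any untreated culture of the same age, and the 5 aged untreated cultures held no Cxcl2 read.

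Levels of different genes were compared in TPM, which scales counts by transcript length as well as by library. In young untreated BV-2 microglia, Cxcl14 and Cxcr4 were the leading members, at 115 ± 6.24 and 97.6 ± 19.2 TPM (mean ± SD, n = 5), and their ranges overlapped. Cxcl10 followed at 7.15 ± 4.67 TPM, above every value of Cxcl16 (1.46 ± 0.463 TPM) but not of Cxcl2 (1.42 ± 1.81 TPM), since Cxcl2 reached 4.63 TPM in culture 1. Without culture 1 the mean of Cxcl2 was 0.618 ± 0.258 TPM (n = 4), with all 4 values below those of Cxcl10 and Cxcl16. In aged untreated cells Cxcl14, at 156 ± 16.1 TPM, lay above Cxcr4, at 82.9 ± 5.60 TPM, with no overlap. Cxcl10 (1.03 ± 0.537 TPM) and Cxcl16 (1.02 ± 0.334 TPM) could not be separated there.

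LPS overturned this order. In young LPS-treated cells Cxcl10 led at 1269 ± 592 TPM, followed without overlap by Cxcl2 at 323 ± 116 TPM and Cxcl14 at 41.3 ± 3.93 TPM, and then by Cxcl16 (7.06 ± 1.81 TPM) and Cxcr4 (5.34 ± 1.04 TPM), whose ranges overlapped. In aged LPS-treated cells Cxcl10 again led, at 394 ± 282 TPM (268 ± 34.3 TPM without culture 3, n = 4), but Cxcl2 (85.5 ± 15.3 TPM) and Cxcl14 (72.5 ± 3.21 TPM) overlapped, and Cxcr4 (14.3 ± 1.13 TPM) lay above Cxcl16 (5.74 ± 1.36 TPM). The 8 ligands together summed to 116 to 132 TPM in the young and 139 to 178 TPM in the aged untreated cultures, and to 898 to 2661 TPM in the young and 383 to 1078 TPM in the aged LPS-treated cultures. Cxcl10 made up 69.4% to 81.4% of the TPM of all 9 genes in young LPS-treated cultures. In the aged ones it made up 59.0% to 62.1%, apart from culture 3 at 82.0%.

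The neutrophil attractants were represented almost wholly by Cxcl2. The young LPS-treated cultures held 303, 242, 276, 123 and 148 CPM of Cxcl2 (cultures 1 to 5), and the aged ones 41.5, 55.8, 67.5, 54.8 and 49.3 CPM. Young untreated cultures held 2.69, 0.447, 0.423, 0.132 and 0.399 CPM, that is 39, 7, 7, 2 and 6 reads, and aged untreated cultures none. All LPS-treated cultures therefore lay above all untreated ones, and the young and aged LPS groups did not overlap.

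In young cells the Cxcl2 level rose with LPS by 8.08 ± 0.40 (log2 fold change ± SE, n = 5 per group; edgeR adjusted p = 1.94e-12), a 267-fold ratio of mean CPM that became 623-fold without young untreated culture 1. In aged cells the mean LPS-treated level was at least 288-fold higher than the floor of the untreated cultures (edgeR adjusted p = 9.40e-11). After LPS the Cxcl2 level was 4.06-fold lower in aged than in young cultures, or -2.02 ± 0.25 on the log2 scale (edgeR adjusted p = 8.12e-06), and was lower in the aged culture of all 5 batches, by 1.16 to 2.86 on the log2 scale. Untreated, the aged cultures were at least 4.39-fold lower against the floor, but the edgeR adjusted p was 0.0513, and the bound shrank to 1.88-fold without young culture 1 (edgeR adjusted p = 0.150). With the batch as a block the edgeR adjusted p was 0.0413, without the filter on low counts it was 0.00519, and with DESeq2 it was 1.18e-06.

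Cxcl3 and Cxcl1, close relatives of Cxcl2, were nearly silent. Cxcl3 had 7, 8, 29, 6 and 4 reads in the young LPS-treated cultures and 0, 5, 2, 3 and 0 in the aged ones. An exact two-sided permutation test of the mean CPM, for which 5 cultures against 5 allow no p below 0.0079, gave p = 0.0079 for LPS against untreated young cells (adjusted p = 0.0317 over the 12 tests on low-count genes). The mean level was at least 4.19-fold above the floor of the untreated cultures, or 2.68-fold without young LPS culture 3, which held 29 of the 54 reads. For Cxcl3 in aged against young LPS-treated cells, the exact permutation p was 0.0159 (adjusted p = 0.0476), with a mean at least 3.68-fold higher in young cells against the floor, under which the aged mean lay, or at least 2.35-fold without that culture. In aged cells alone the LPS comparison of Cxcl3 gave an exact permutation p of 0.167, whereas edgeR without the filter gave an adjusted p of 0.0206 and DESeq2 0.00885. Cxcl1, transcribed 10.8 kb before Cxcl2, had 2 reads in the young and 1 in the aged LPS group, all at or under the floor. Per length, the mean Cxcl2 level was 449-fold that of Cxcl3 in young LPS-treated cells (655-fold without culture 3), and at least 408-fold in aged ones, where mean Cxcl3 lay below the floor of 3 counts per library. Against that floor it was at least 825-fold and 219-fold above Cxcl1 in young and aged cells. The 3 promoters that share the 10 letters thus belonged to genes at very different levels after LPS.

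**Figure D2:**
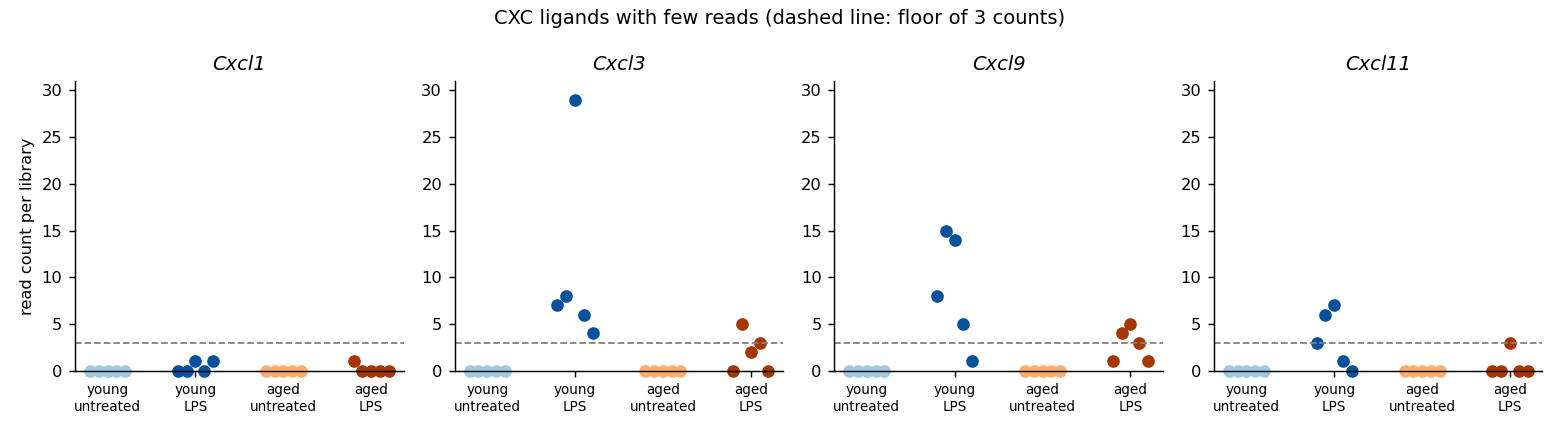
Read counts per library of Cxcl1, Cxcl3, Cxcl9 and Cxcl11, with 5 points per group and the floor of 3 counts as a dashed line. All untreated cultures are at 0, Cxcl3 reaches 29 reads and Cxcl9 15 reads in single young LPS-treated cultures, and Cxcl1 never exceeds 1 read.

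Among the interferon-inducible ligands that bind Cxcr3, Cxcl10 carried almost all reads. Young untreated cultures held 7.93, 2.88, 7.24, 2.18 and 1.93 CPM of Cxcl10, and aged untreated cultures 1.03, 0.471, 0.171, 0.659 and 0.799 CPM. The highest aged culture lay below the lowest young one. After LPS, the young cultures held 1607, 1126, 773, 465 and 704 CPM and the aged ones 161, 203, 618, 198 and 170 CPM. Here the groups overlapped, because aged culture 3 exceeded the lowest young culture.

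LPS raised the Cxcl10 level by 7.71 ± 0.50 in young cells (log2 fold change ± SE; edgeR adjusted p = 4.55e-12) and by 8.75 ± 0.61 in aged cells (edgeR adjusted p = 3.49e-11), or by 8.19 in aged cells without culture 3. After LPS the Cxcl10 level was lower in aged than in young cells, by a log2 value of -1.79 ± 0.35 (edgeR adjusted p = 0.000502). Without aged LPS culture 3 the value was -2.35 (edgeR adjusted p = 1.60e-06), and the ratio of mean CPM moved from 3.46-fold to 5.11-fold lower. The aged culture was lower in all 5 batches, with log2 differences from -3.32 in batch 1 to -0.32 in batch 3.

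In the untreated state the Cxcl10 level was 7.07-fold lower in aged cells by the ratio of mean CPM, with a log2 value of -2.83 ± 0.86 (edgeR adjusted p = 0.0343) and a lower value in 5 of 5 batches. The call depended on single cultures. It was lost without any 1 of the 5 batches (edgeR adjusted p = 0.0512 to 0.105), and also without young untreated culture 1 (edgeR adjusted p = 0.0948) or 3 (0.0931) or aged untreated culture 2 (0.0694), 3 (0.0694), 4 (0.0684) or 5 (0.0569). DESeq2 gave an adjusted p of 3.21e-05 and the batch block in edgeR 0.0186. The log2 fold change stayed between -3.12 and -2.30 when batches or single cultures were left out.

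Cxcl9 and Cxcl11, the neighbours of Cxcl10, stayed near the floor. Cxcl9 had 8, 15, 14, 5 and 1 reads in young and 1, 4, 5, 3 and 1 reads in aged LPS-treated cultures. The exact permutation p for LPS against untreated cells was 0.0079 at both ages (adjusted p = 0.0317), since every LPS-treated culture had at least 1 read, and 0.0556 for aged against young LPS-treated cells (adjusted p = 0.111), where edgeR without the filter gave an adjusted p of 0.0418. Without young LPS culture 5, which had 1 read, the exact permutation p of the age comparison was 0.00794, and it was 0.0556 to 0.103 without any other of the 10 cultures. The permutation test did not use the pairing by batch. In reads, the aged LPS-treated culture was lower in batches 1 to 4 and equal in batch 5. Cxcl11 had 3, 6, 7, 1 and 0 reads in the young LPS group and 3 reads, all in culture 3, in the aged one. Its exact permutation p for LPS in young cells was 0.0476 (adjusted p = 0.111), while edgeR without the filter gave an adjusted p of 0.00118 and DESeq2 0.188. In mean TPM, Cxcl10 stood 1813-fold above Cxcl9 in young LPS-treated cells and, as mean Cxcl9 was under the floor there, at least 1619-fold above it in aged ones.

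**Figure D3:**
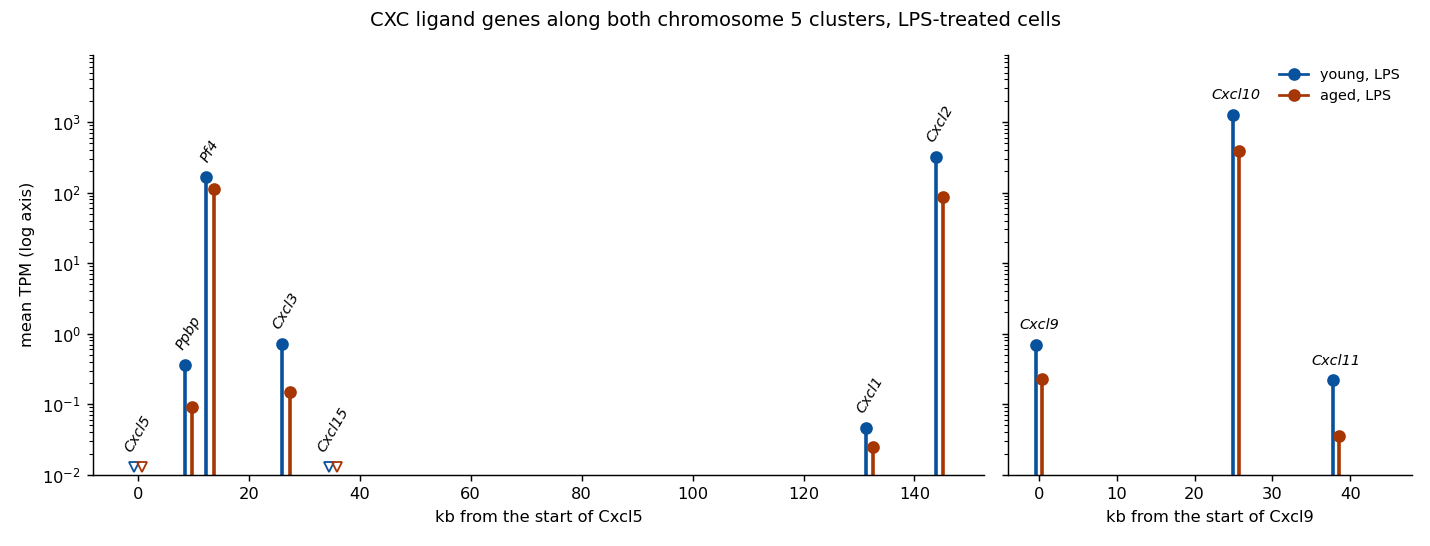
Mean TPM (log axis) of the CXC ligand genes in LPS-treated young and aged cells against distance in kb from the start of the first gene, for the cluster that holds Cxcl2 (left) and the cluster that holds Cxcl10 (right); open triangles mark genes at 0. Cxcl2, at 323 and 85.5 TPM, stands far above Cxcl1 and Cxcl3, and Cxcl10, at 1269 and 394 TPM, far above Cxcl9 and Cxcl11, while Pf4 stands at 168 and 112 TPM.

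Cxcl14 behaved in the opposite direction to these ligands. Its level was 57.1, 55.7, 57.7, 54.3 and 63.9 CPM in young untreated and 67.2, 85.9, 82.8, 76.9 and 72.7 CPM in aged untreated cultures. With LPS it was 22.5, 24.7, 22.3, 25.5 and 27.9 CPM in young and 40.8, 41.9, 38.1, 39.9 and 40.7 CPM in aged cultures. No 2 of the 4 groups overlapped, and at either treatment every aged culture was above every young one. LPS lowered the Cxcl14 level, with log2 fold changes of -1.23 ± 0.07 in young (edgeR adjusted p = 8.96e-13) and -0.94 ± 0.07 in aged cells (edgeR adjusted p = 8.41e-11). The level was higher in aged than in young cells by 0.42 ± 0.07 untreated (edgeR adjusted p = 0.000303) and by 0.71 ± 0.07 after LPS (edgeR adjusted p = 4.16e-07), in 5 of 5 batches each time. The ISRE match of its promoter (GAAACAGAAA, opposite strand) began 172 bases upstream.

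Cxcl16 was a weakly expressed gene that LPS raised at both ages. Untreated, it held 0.897 to 1.81 CPM in young (median 1.05) and 0.471 to 1.21 CPM in aged cultures (median 0.856). With LPS, it held 4.79 to 8.79 CPM in young (median 7.61) and 3.38 to 6.50 CPM in aged cultures (median 5.48). LPS-treated and untreated cultures did not overlap, whereas young and aged ones did at either treatment. The rise with LPS was 2.51 ± 0.23 on the log2 scale in young (edgeR adjusted p = 2.17e-09) and 2.63 ± 0.25 in aged cells (edgeR adjusted p = 5.50e-09). Aged against young cells did not pass the test untreated (log2 fold change -0.52 ± 0.30, edgeR adjusted p = 0.286) or after LPS (-0.40 ± 0.19, edgeR adjusted p = 0.135), and 2 of 5 batches went the other way in each. With single batches or cultures left out, these values ranged from -0.75 to -0.32 untreated and from -0.51 to -0.18 after LPS. None of them passed.

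Cxcr4, the receptor, was among the genes lowered by LPS. Young untreated cultures held 63.9, 50.9, 48.8, 38.8 and 40.3 CPM and aged untreated cultures 42.9, 39.2, 44.0, 37.2 and 39.0 CPM. With LPS the young cultures held 4.05, 2.82, 2.55, 3.43 and 2.87 CPM and the aged ones 8.08, 6.68, 8.14, 7.67 and 8.68 CPM. The untreated groups overlapped, whereas each aged LPS-treated culture kept more Cxcr4 RNA than any young one. The mean CPM was 15.4-fold lower with LPS in young cells (log2 fold change -3.96 ± 0.14, edgeR adjusted p = 2.01e-16) and 5.16-fold lower in aged cells (-2.36 ± 0.12, edgeR adjusted p = 2.17e-13). After LPS it was 2.50-fold higher in aged than in young cells (1.34 ± 0.16, edgeR adjusted p = 2.56e-06). Untreated, the log2 fold change was -0.26 ± 0.11 (edgeR adjusted p = 0.113), with a lower value in the aged culture of all 5 batches. It passed the test without young untreated culture 4 (edgeR adjusted p = 0.0379). Without young untreated culture 1 the log2 fold change was -0.14 (edgeR adjusted p = 0.361).

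**Figure D4:**
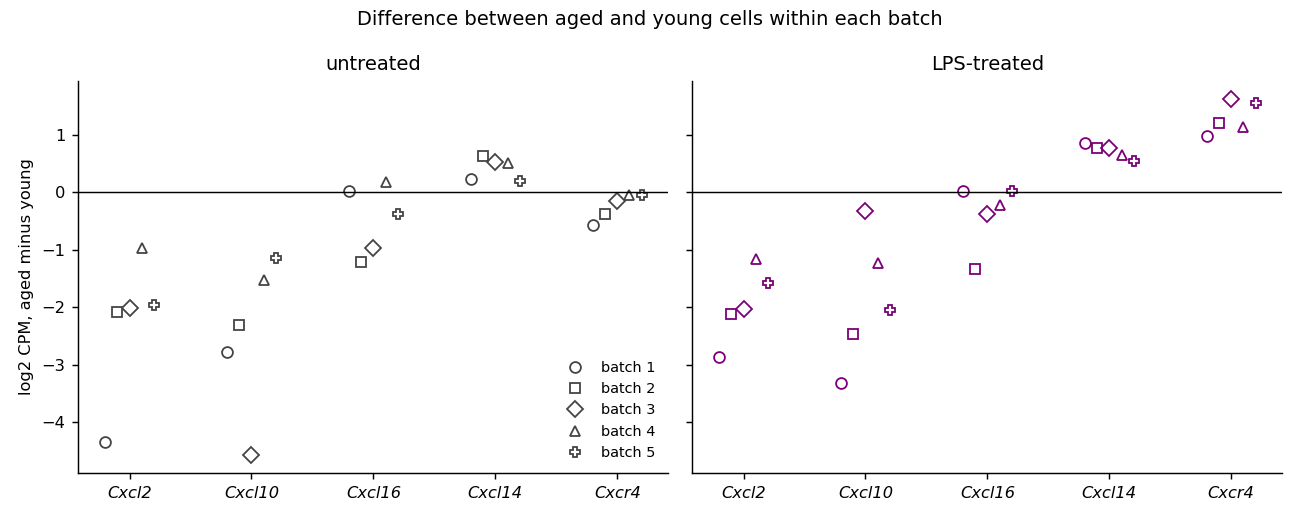
Differences in log2 CPM between the aged and the young culture of each of the 5 batches, untreated (left) and LPS-treated (right), 1 symbol per batch, with the value of Cxcl2 in untreated cells set by the prior count of 2 because no aged culture had a read. After LPS, all 5 batches lie below 0 for Cxcl2 and Cxcl10 and above 0 for Cxcl14 and Cxcr4, and those of Cxcl16 lie on both sides.

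Counts of members were set against the whole transcriptome. In untreated cells 2 of the 5 tested members differed between ages, while 11.5% of all tested genes passed. Cxcl14 was higher in aged cells, as were 3.71% of all genes, and Cxcl10 was lower, as were 7.81%. With LPS in young cells all 5 members passed, as did 64.6% of all genes, with 3 members and 31.2% of genes higher and 2 members and 33.5% of genes lower. With LPS in aged cells all 5 passed again, against 54.4% of all genes, with 3 members and 27.5% of genes higher and 2 members and 26.9% of genes lower. Cxcl2 passed the filter through the LPS-treated groups, so its LPS calls in these counts are not independent of the filter. Between aged and young LPS-treated cells 4 of the 5 passed, against 29% of all genes. Cxcl14 and Cxcr4 were higher in aged cells, as were 14% of all genes, and Cxcl2 and Cxcl10 were lower, as were 15%. The difference between the LPS responses of aged and young cells was tested as an interaction, and 1 member, Cxcr4, passed, against 6.39% of all genes (4.12% with a higher and 2.27% with a lower value in aged cells). The 5 comparisons share libraries and are not separate sources of evidence.

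For Cxcr4 the LPS response was less negative in aged cells by 1.60 ± 0.19 on the log2 scale (edgeR adjusted p = 6.46e-05), in 5 of 5 batches, with within-batch differences of 1.19 to 1.77. For Cxcl14 the difference was 0.29 ± 0.10 in the same direction, also in 5 of 5 batches, but with an edgeR adjusted p of 0.0847. It passed in edgeR when libraries were scaled by their total counts alone (adjusted p = 0.0325), and without young LPS culture 5 (0.0384) or, barely, aged untreated culture 2. For Cxcl10 the difference was 1.04 ± 0.99 (edgeR adjusted p = 0.643) and for Cxcl16 0.12 ± 0.35 (edgeR adjusted p = 0.908). The Cxcl10 difference varied widely between batches. It was 4.25 within batch 3 and between -0.90 and 0.30 in the other batches. When single cultures were left out, the Cxcl10 difference ranged from 0.48 to 1.33 and did not pass. For Cxcl2 the edgeR adjusted p of the difference was 0.363 and DESeq2's was 0.0119, and its size depends on the prior count since the aged untreated cultures had no reads.

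**Figure D5:**
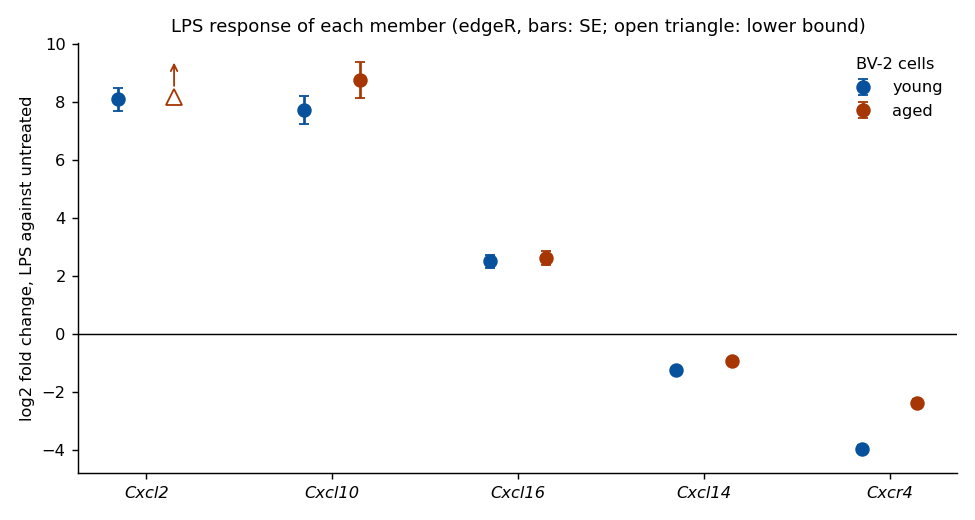
Log2 fold change of LPS-treated against untreated cells for the 5 tested genes in young and aged cells, n = 5 cultures per group. Bars, where larger than the point, are the SE derived from the F-test. The open triangle is the lower bound for Cxcl2 in aged cells (at least 288-fold), and the gap between young and aged is clearest for Cxcr4, at -3.96 against -2.36.

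Other genes of these pathways were counted from lists. Leaving out any batch also lowered the number of all genes passing in either direction. It was 548 to 1193 for untreated aged against young cells (1475 with all batches) and 2156 to 3563 after LPS (3717). For the difference of responses it was 189 to 697 (818). List counts without a batch are therefore not comparable with the shares of all genes, which used all batches. Of the 7 other CXC ligands, Pf4 (platelet factor 4) alone passed the filter. It held 41.3 ± 8.13 CPM in young untreated, 39.6 ± 11.1 CPM in young LPS-treated, 26.1 ± 8.45 CPM in aged untreated and 24.5 ± 8.99 CPM in aged LPS-treated cultures (mean ± SD, n = 5). LPS against untreated cells did not pass at either age (log2 fold changes -0.07 ± 0.24 and -0.09 ± 0.25). Its level was lower in aged than in young LPS-treated cells, with a log2 difference of -0.68 ± 0.25 (edgeR adjusted p = 0.0400), a call lost with library totals alone as the scale, when only those 2 groups were fitted, without batch 1, 2 or 5, and without any 1 of 8 single cultures (12 of 20 kept it). Untreated, the difference was -0.66 ± 0.24 (edgeR adjusted p = 0.0773, or 0.0237 with the batch as a block). Cxcl5, Cxcl12, Cxcl13 and Cxcl15 had 0 counts in every library, so no transcript of Cxcl12, the ligand of Cxcr4, was detected at this depth. Of the 9 other CXC and atypical receptors Cxcr3 alone was tested, and it passed in none of the 5 comparisons. With LPS in aged cells its log2 fold change was 0.92 ± 0.42 (edgeR adjusted p = 0.0657), and it passed without batch 2, aged LPS culture 2 or aged untreated culture 3. Cxcr2 had at most 17 counts in any library, with 0.616 ± 0.325 CPM in young untreated and 0.133 ± 0.103 CPM in young LPS-treated cells, a difference that passed in edgeR without the filter and in DESeq2. In aged cells it held 0.317 ± 0.189 CPM untreated and 0.406 ± 0.319 CPM with LPS. Ackr3, the other receptor of Cxcl12, had no counts.

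The NF-kappaB list held 14 genes, all tested. With LPS all 14 passed as higher in young and in aged cells, as did 31.2% and 27.5% of all genes (medians 2.09 and 1.99 on the log2 scale, against -0.01 and 0.00 over all genes), led by Tnfaip3 (4.05 and 3.95) and Nfkbiz (3.54 and 3.45). Between aged and young LPS-treated cells 13 were lower in the aged and none higher, where 15% of all genes were lower and 14% higher, with a median of -0.37 against 0.01 over all genes. The largest were Nfkbie (-1.21 ± 0.22), which encodes an inhibitor of NF-kappaB, Tnfaip3 (-0.72 ± 0.09), which encodes the feedback inhibitor A20, Bcl3 (-0.65 ± 0.10) and Nfkbiz (-0.60 ± 0.08). Among these, Nfkbie and Tnfaip3 are thus inhibitors of the pathway the list is named for. Untreated, 5 passed as lower in aged cells (7.81% of all genes did; 3 of the list without batch 2 or 4), led by Tnfaip3 (-0.62), Bcl3 (-0.58), Nfkbiz (-0.51) and Relb (-0.45). Of the differences between responses 1 passed, that of Nfkbib (-0.49 ± 0.12, edgeR adjusted p = 0.0119), against 6.39% of all genes. The count was 0 without batch 1, 2 or 5 and 2 without young LPS culture 4, while all genes passing fell from 818 to between 189 and 697 without single batches.

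The interferon list, from Ifnb1 to the factors that induce the Cxcr3 ligands, had 17 of its 18 genes tested. With LPS 14 passed as higher and 2 as lower in young cells (31.2% and 33.5% of all genes), and 13 and 2 in aged cells (27.5% and 26.9% of all genes), led by Irf7 (6.39 and 7.13) and Usp18 (6.30 and 6.92). Without young untreated culture 1 the young values were 6.75 for Irf7 and 6.95 for Usp18, and without aged LPS culture 3 the aged ones were 6.85 and 6.63. After LPS 14 were lower in aged than in young cells, where 15% of all genes were, with a median of -0.41 against 0.01 over all genes. Stat2, a subunit of the interferon-activated factor ISGF3, was lowest (-1.34 ± 0.19), followed by Irf7 (-1.15 ± 0.21), Irf1 (-1.11 ± 0.16) and Usp18 (-1.0 ± 0.24). Without aged LPS culture 3 these values were -1.65 for Stat2, -1.42 for Irf7, -1.27 for Irf1 and -1.29 for Usp18. Untreated, 7 passed as lower, among them Irf7 (-1.89 ± 0.56), the receptor genes Ifngr1 (-0.36) and Ifnar1 (-0.28), and Tyk2 (-0.34), against 7.81% of all genes. This count was 4 without aged untreated culture 2 or without batch 4, and Irf7 did not pass without young untreated culture 1 (-1.53 ± 0.58, edgeR adjusted p = 0.109). The LPS response was smaller in aged cells for Stat2 (-1.23 ± 0.30, edgeR adjusted p = 0.0155), Irf1 (-0.85 ± 0.24, edgeR adjusted p = 0.0349) and Tbk1 (-0.28 ± 0.07, edgeR adjusted p = 0.0136), against 2.27% of all genes with a lower response. This count of 3 was 5 without aged LPS culture 3 or young LPS culture 4, 0 without batch 1 or 2 and 1 without batch 5. All genes passing in either direction fell from 818 to between 189 and 697 without single batches. For Stat2 the difference was -1.54 without aged LPS culture 3, and for Irf1 it did not pass without young untreated culture 1 (-0.78 ± 0.24, edgeR adjusted p = 0.0645).

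Of 25 genes of CXCR4 signalling and desensitization 22 were tested. After LPS 2 were higher in aged than in young cells, Rgs2 (0.52 ± 0.17), a regulator of G protein signalling, and Grk6 (0.39 ± 0.06), a kinase that desensitizes receptors. Another 8 passed as lower, led by Jak2 (-0.88 ± 0.11) and Cd74 (-0.63 ± 0.15), the Mif receptor and MHC class II chaperone. These 10 of 22 compare with 29% of all genes, and without batch 2 they were 6. With library totals alone as the scale 2 were higher and 5 lower. LPS raised 10 and lowered 8 in young cells (64.6% of all genes passed), and 9 and 8 in aged cells (54.4%). Rgs2 fell (-2.60 and -2.0), like Cxcr4, and Cd74 rose (2.23 and 2.26). Untreated, 7 passed as lower in aged cells, led by Cd74 (-0.66 ± 0.16) and Gng2 (-0.30 ± 0.07), against 7.81% of all genes. Without batch 2 this count was 1, and without batch 3 it was 3, while all genes passing also fell, from 1475 to between 548 and 1193 without single batches. The LPS response differed for Grk6 (0.36 ± 0.08, edgeR adjusted p = 0.00729) and Jak2 (-0.69 ± 0.17, edgeR adjusted p = 0.0132), against 6.39% of all genes, and 1 of the list passed without batch 1, 2 or 5. With library totals alone as the scale, the median of this list after LPS turned from 0.07 to -0.15 in young cells, with 7 rising and 11 falling. In aged cells it turned from 0.05 to -0.11, with 6 rising and 9 falling. The median of all genes moved likewise, from -0.01 to -0.23 in young and from 0.00 to -0.16 in aged cells. The list median stayed slightly above it under both scales.

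Of 15 proteases known to cut CXC chemokines 13 were tested. With LPS 8 rose and 2 fell at either age, where 64.6% of all genes passed in young and 54.4% in aged cells, led by Mmp13 (6.01 in young and 5.35 in aged cells), Mmp14 (3.41 and 3.57) and Mmp12 (3.28 and 2.25). The shedding enzymes of Cxcl16 were named after their values were seen. Adam17 rose (1.36 and 1.26) and Adam10 fell (-0.58 and -0.47). The aged LPS-treated cells had 7 at lower levels than the young ones, led by Mmp13 (-1.53 ± 0.29), Mmp8 (-1.36 ± 0.39) and Mmp14 (-1.11 ± 0.23), while 15% of all genes were lower. Untreated, 1 passed, Mmp8 (-1.96 ± 0.32), against 11.5% of all genes, with 2 passing without batch 3 and 3 without aged untreated culture 3. Of the differences between responses 1 passed, Furin (-0.40 ± 0.11, edgeR adjusted p = 0.0265), against 6.39% of all genes. It was lost without batch 1, 2, 4 or 5, and without aged LPS culture 2 or 4, young LPS culture 2 or 3 or aged untreated culture 4.

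The 16 factors of AU-rich element mRNA decay and stability, which act on short-lived chemokine transcripts, were all tested. With LPS 10 rose and 5 fell in young cells and 10 and 3 in aged cells, where 64.6% and 54.4% of all genes passed, led by Zc3h12a (3.23 and 3.40), the RNase Regnase-1. With library totals alone as the scale, 6 rose and 6 fell in young cells and 7 and 5 in aged cells. Comparing ages after LPS, 6 passed as lower and 2 as higher in aged cells, against 15% and 14% of all genes, and 4 in all without batch 2. Zfp36, which encodes the decay factor tristetraprolin, was lowest (-1.07 ± 0.12), and Zfp36l2 was higher (0.36 ± 0.05). The LPS response differed for the same genes, Zfp36 (-0.72 ± 0.17, edgeR adjusted p = 0.0135) and Zfp36l2 (0.43 ± 0.07, edgeR adjusted p = 0.00118), against 6.39% of all genes, with 1 passing without batch 1, 2 or 5. Under library totals alone, 2 passed as lower and 4 as higher in aged against young LPS-treated cells. Untreated, 1 passed, Zc3h12a (-0.56 ± 0.12), against 11.5% of all genes, and 2 did with the batch as a block, without batch 1, and without aged LPS culture 3, young LPS culture 4 or young untreated culture 5.

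Over the 20 libraries, in which LPS sets most of the variation, the genes outside the family with levels (log2 CPM) most like each member were found by Pearson's r, as a description. For Cxcl2 they were the guanylate-binding genes Gbp3 (r = 0.995) and Gbp2 (0.994) and the ubiquitin-like Isg15 (0.994). For Cxcl10 they were Parp14 (0.995), Nos2, the inducible nitric oxide synthase (0.994), and Dhx58 (0.994). For Cxcl14 they were the neurofilament gene Nefh (0.982), Mrps35 (0.975) and Angptl2 (0.975), and for Cxcl16 Ptk2b (0.975), Camta2 (0.973) and the MHC gene H2-Q4 (0.972). For Cxcr4 they were Ripor1 (0.992), Rbl2 (0.992) and the ceramide kinase gene Cerk (0.991). Cxcl2 and Cxcl10 had r = 0.99 with each other, and Cxcl14 and Cxcr4 had r = 0.925.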

How the data were processed

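Poly(A)-selected, stranded libraries of 20 BV-2 cultures were sequenced on an Illumina instrument. The authors aligned reads to GRCm38 with STAR (2.6.1d), counted them per Ensembl gene with featureCounts (1.5.1) and deposited raw counts without normalization. Settings for strand and multiple alignments are not given in the sources used here, so reads of overlapping genes, and of the related Cxcl1, Cxcl2 and Cxcl3, could be shared. Members and gene lists were chosen with earlier results of these data known.

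Counts were fitted with edgeR (4.0.16, in R 4.3.3), by the quasi-likelihood F-test in a single model of the 4 groups over 20 libraries, after filterByExpr and TMM scaling. The SE printed with a log2 fold change was derived from this test, as the absolute log2 fold change divided by the square root of the F statistic. It therefore carries the same information as the unadjusted p-value and is unstable for very small changes. Benjamini-Hochberg adjustment ran over 12799 genes with a threshold of 0.05. CPM used TMM-scaled library sizes, and log2 CPM a prior count of 2. TPM used the union of exons (GENCODE M21), found for 55141 of 55487 identifiers. Members under the filter were compared by exact two-sided permutation tests, which did not use the pairing by batch. Folds against a group at or under 3 counts are bounds against that floor in each library. The fit was also run on simulated counts, and the outcome is not given here.

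Replicate numbers are batch numbers in the labels and so pair the cultures. Across genes, deviations from the group mean had a correlation of 0.146 on average between cultures of a batch. It ranged from -0.214, between the aged and young LPS-treated cultures of batch 1, to 0.394. Chi-square per degree of freedom between libraries of a group, against counting error alone, was at least 2.42, so none was a copy of another library. This check cannot tell whether the libraries came from separate cultures.

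The genes named were all 9 members, the 3 genes most correlated with each tested member (mean log2 CPM of at least 1), and, per list and comparison, up to 4 passing genes with the largest log2 fold change. Lists covered other CXC ligands, other CXC and atypical receptors, NF-kappaB, interferon, CXCR4 signalling, proteases, AU-rich decay and cell type markers. Alternatives were DESeq2 (1.42.0), the batch block, DESeq2 size factors or library totals in place of TMM, no filter, only the groups compared, the longest transcript as length, and each batch or library left out. Means, ratios and bounds without the libraries that stood apart, or without each library in turn, were added after seeing the data.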

Additional observations from a re-analysis of the deposited data

Results flagged for a closer look

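The Cxcl10 level of aged LPS culture 3 stood apart from the other 4 of its group. On the log2 CPM scale its gap to the nearest culture was 0.830 of the whole range of the group (Dixon's ratio), above the critical value of 0.71 for 5 samples. It was 1 of 19 groups of 5 examined, and chance marks about 1 in 20. The same culture was highest of its group for 14 of 17 interferon list genes. Whether a handling difference or a biological one lay behind it was not tested.

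The LPS response of Cxcr4 differed between ages, by 1.60 on the log2 scale (aged minus young, edgeR adjusted p = 6.46e-05, 5 of 5 batches). It was 1.59 without aged LPS culture 3 and 1.48 without young untreated culture 1.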

How the results depend on the processing

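Under the alternatives, 769 log2 fold changes of members were recomputed: 740 kept their direction and side of the threshold, 11 no longer passed, 14 newly passed and 4 reversed. The reversed values, none of them past the threshold, were differences between LPS responses. For Cxcl10 the range without single batches was -0.11 (without batch 3) to 1.42. For Cxcl16 it was -0.07 (without batch 3) to 0.30, and without single cultures -0.075 (young untreated culture 3) to 0.304, with -0.02 without aged untreated culture 2.

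With the batch as a block, which uses the pairing, 3 members differed between aged and young untreated cells, as Cxcl2 was added (edgeR adjusted p = 0.0413) to the 2 of the unblocked fit, and no other member's call changed. All genes passing there rose from 1475 to 2204.

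Leaving out batches or cultures, members passing in untreated aged against young cells ranged from 1 to 4 (2 with all) and all genes from 548 to 1646 (1475). For aged against young LPS-treated cells all genes ranged from 2156 to 3937 (3717), and for the difference of responses from 189 to 1069 (818), with 1 to 2 members (1). With 4 cultures per group 0 of the 4 passing permutation tests on low-count genes passed, where the exact p cannot fall below 0.0286. Without the filter 8 members passed with LPS in young cells (5 with it; Cxcl3, Cxcl9 and Cxcl11 added). For the difference of responses, 2 members passed with library totals (Cxcl14 added) and 2 with DESeq2 (Cxcl2 added). With the longest transcript as length, Cxcl14 in aged untreated cells was 119 TPM (156 with all exons) and Cxcr4 in young untreated cells 74.3 TPM (97.6). The length of Cxcl14 was 1827 bases by either measure, and that of Cxcr4 was 1808 or 1805 bases. Their TPM thus moved almost wholly through the lengths of the other genes in the scaling. The cause of the changes with library totals and with DESeq2 was not tested.

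Library totals alone moved the median of all genes with LPS from -0.01 to -0.23 in young and from 0.00 to -0.16 in aged cells. The share of passing genes that were higher went from 48.2% to 27.3% and from 50.6% to 28.4% for LPS, from 32.2% to 42.2% for untreated and from 48.3% to 70.1% for LPS-treated aged against young cells, and from 64.4% to 81.3% for the difference. No tested member changed direction with it. Depth limits Cxcl1, Cxcl3, Cxcl9 and Cxcl11, and Cxcl2 in untreated cells.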
